A study of Mus musculus with 4 samples.

Results

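The immediate-early activity genes are 10 genes of the mouse genome that neurons transcribe within minutes of strong synaptic input, and they were followed across cell classes in 4 single-nucleus RNA sequencing libraries. They were chosen by name, as Fos, Fosb, Jun, Junb, Egr1, Egr3, Arc, Npas4, Nr4a1 and Homer1, and each matched exactly 1 of the 46983 genes counted. The libraries came from male C57Black/6 mice aged 3 months, 1 labelled sham control and 3 from day 1, day 3 and day 7 after permanent middle cerebral artery occlusion (MCAO), a stroke model that leaves an infarct in parietal cortex after the vessel is closed and severed under isoflurane. Each library pooled 3 forebrain hemispheres during nuclei isolation, so a group is 1 library and differences between groups have no check by replicates. Every interval given is an exact 95% interval and covers counting error only. The labels name no transgene, and the study's methods give pentobarbital anaesthesia before perfusion and dissection besides the isoflurane of surgery.

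Some facts of the libraries touch all values. The surgical protocol names intact cortex as the control, whereas the label says sham control and the design names forebrain hemispheres for all groups. Striatal nuclei were present in the sham library, and each library is called by its label here. The study's own numbers of nuclei by time point match the deposited libraries only when day 3 and day 7 are exchanged, so a difference between those days rests on labels that were not checked further here. The libraries held 23285489 to 42963698 UMIs (unique molecular identifiers, each a counted RNA molecule), and 1019 to 3093 nuclei were kept in each. Median depth per called nucleus ran from 5501 UMIs at day 3 to 11035 at day 1. Between 0 and 3 nucleus barcodes were shared by any 2 libraries.

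Transcription of these genes needs no new protein. Calcium entering through glutamate receptors and voltage-gated channels activates kinases that phosphorylate CREB and the cofactors of serum response factor, which already sit at the promoters. Fos, Fosb, Jun and Junb encode subunits of the dimeric factor AP-1, Egr1 and Egr3 encode zinc-finger factors, Npas4 encodes a factor that responds mainly to calcium influx, and Nr4a1 encodes an orphan nuclear receptor. Arc and Homer1 act at the synapse, Arc in the removal of AMPA receptors and Homer1 as a scaffold of metabotropic glutamate receptors, with a short activity-induced form that competes with the long forms. Jun and Junb also respond to stress and cytokine signals in glia and endothelium.

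The promoters of 4 members are shown because Fos, Junb and Nr4a1 were at least 2-fold lower in glutamatergic-like nuclei at day 7 whereas Jun was not, and the letters let their CREB-type elements be seen side by side. The sequences are from RefSeq on GRCm38.p6 and give the 150 bases just before the annotated start, 5′ to 3′ on the gene's own strand, with each TGACG, or CGTCA for the other strand, in capitals. This 5-letter core of the cAMP response element was found at 2 places before Fos and Nr4a1, at 1 before Junb and not at all before Jun. The search took exact letters only. The tgacatca in the Jun window, which departs from the core at its last letter, was therefore not counted. No annotated exon overlapped these windows, and that of Nr4a1 lies in an intron of the longer annotated gene.
Fos, chr12:85473740-85473889, plus strand: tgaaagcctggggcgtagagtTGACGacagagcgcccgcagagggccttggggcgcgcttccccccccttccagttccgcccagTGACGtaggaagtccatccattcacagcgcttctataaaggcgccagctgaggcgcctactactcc
Junb, chr8:84978749-84978898, minus strand: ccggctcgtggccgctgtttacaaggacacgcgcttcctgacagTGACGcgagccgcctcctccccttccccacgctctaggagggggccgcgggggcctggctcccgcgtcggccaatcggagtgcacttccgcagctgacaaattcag
Nr4a1, chr15:101266696-101266845, plus strand: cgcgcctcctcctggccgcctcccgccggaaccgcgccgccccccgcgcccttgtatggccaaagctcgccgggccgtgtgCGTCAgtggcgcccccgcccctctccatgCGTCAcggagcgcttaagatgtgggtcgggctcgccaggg
Jun, chr4:95052223-95052372, minus strand: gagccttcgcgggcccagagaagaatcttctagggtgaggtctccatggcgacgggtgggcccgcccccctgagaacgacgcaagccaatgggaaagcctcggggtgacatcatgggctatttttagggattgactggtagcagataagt

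Of the 10 members, 7 had a promoter in the table, Homer1 with 2, and 6 of these 8 promoters held TGACG on either strand within 250 bases before the start, against 17.8% of all 32851 promoters. Arc had no entry. In Fos the matches began 129 and 66 bases before the start, in Junb 106, in Fosb 60, and in Nr4a1 at 233, 213, 69 and 40. The 2 matches of Npas4 began at 179 and 169 bases, and the 3 of Homer1 at 56, 40 and 14, although neither gene was 2-fold lower in glutamatergic-like nuclei at day 7, with ratios of 0.646 and 0.602. No relation between the element and a level was tested. The full palindrome TGACGTCA, which contains that core, the AP-1 site TGANTCA and the CArG box of serum response factor were found before none of the 7, against 1.55%, 6.75% and 1.47% of all promoters. A match is a run of letters and not a measured binding site.

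In glutamatergic-like nuclei, the excitatory neurons that made up the largest neuronal class, most members were lower after MCAO than in the sham library, and the gap was widest at day 7. Counts were summed over all nuclei of a class and scaled to a class total of 1000000 (CPM). The class held 504 nuclei in sham, 262 at day 1, 820 at day 3 and 379 at day 7. In all, 581 of its nuclei lay in clusters that were given no cortical layer. The largest, with 313 nuclei, scored highest for dentate granule markers, at 0.685 against 0.583 for upper-layer markers. The others scored highest for middle-layer markers, by too small a lead for a layer name. Not all of the class is thus shown to be cortical. Day 1 had a median log2 ratio to sham of -0.30 over the 10 members, with a counting range from -0.99 up to 0.17. Day 3 had -0.76 (-1.39 to -0.23), and day 7 had -1.12 (-2.14 to -0.66). Over all genes with at least 20 UMIs the median stayed at 0.03, -0.04 and -0.06. Members were lower than sham in 7, 10 and 9 of 10 cases at the 3 days, against 46.1%, 56.0% and 57.9% of all genes tested.

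**Figure D1:**
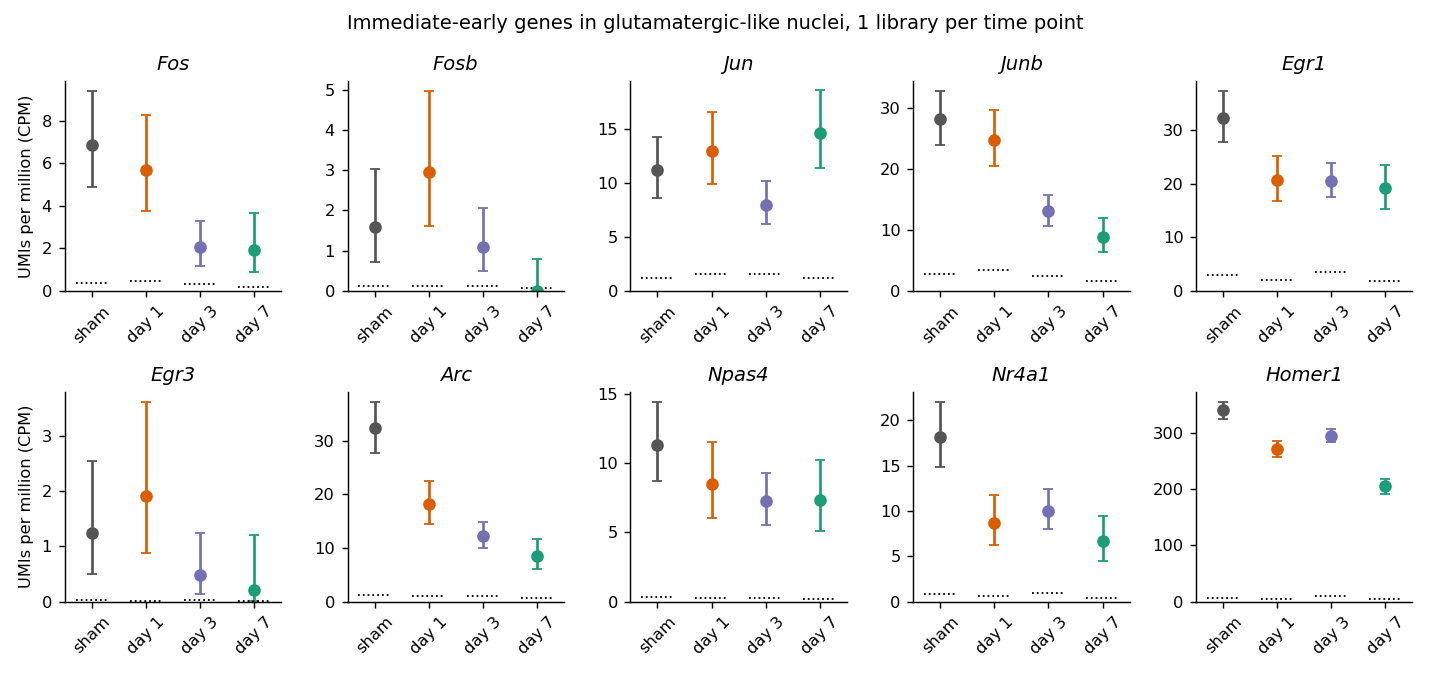
Each panel plots 1 gene's level (CPM, linear axis from 0) in glutamatergic-like nuclei of the 4 libraries, with exact 95% Poisson bars and a dotted line for the level that an equal share of free RNA per droplet would give. Arc, Junb and Nr4a1 are highest in sham, Arc at 32.3 against 8.59 CPM at day 7, while Jun is at 11.1 CPM in sham and 14.6 at day 7.

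A member was called when its ratio to sham was at least 2-fold and both libraries together held at least 20 of its UMIs. In glutamatergic-like nuclei 1 of the 9 members with enough UMIs was called lower at day 1, where 1.52% of all genes tested were. At day 3 the count was 3 of 8, against 1.57% of all genes, and at day 7 it was 4 of 8, against 2.31%. None was called higher at any day, where 3.06%, 1.63% and 2.34% of genes were. Since 9 of the members are short genes, the same share was taken over genes under 25 kb, a background chosen after the values were seen, and it was 1.56%, 2.22% and 3.58% for lower calls, with median log2 ratios of 0.05, -0.08 and -0.12.

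Among the AP-1 subunits, Fos was at 6.89 CPM in sham (39 UMIs), 5.71 at day 1 (27 UMIs), 2.05 at day 3 (17 UMIs) and 1.93 at day 7 (9 UMIs). The intervals of day 3 and day 7 lay below that of sham, and the ratios were 0.298 (0.158 to 0.538) and 0.281 (0.120 to 0.589). Day 1 could not be told from sham, at a ratio of 0.829 (0.488 to 1.39). Junb was at 28.1 CPM in sham, 24.7 at day 1, 13.02 at day 3 and 8.81 at day 7. It had the same order as Fos, with sham and day 1 overlapping and a ratio of 0.464 (0.360 to 0.596) at day 3 and 0.314 (0.217 to 0.445) at day 7. Fosb was sparse, with 9, 14, 9 and 0 UMIs in the order sham, day 1, day 3 and day 7, and the floor of 3 UMIs allows up to 0.644 CPM at day 7, against 1.59 in sham.

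Jun, the AP-1 partner of Fos, did not share this order. It was at 11.1 CPM in sham, 12.9 at day 1, 7.96 at day 3 and 14.6 at day 7, and all 3 intervals of its ratio to sham included 1, with 1.31 (0.918 to 1.88) at day 7. Its log2 ratio at day 1 was 0.21 from the sums and 0.88 as a mean over nuclei, and with nuclei thinned to 1000 UMIs those of days 1, 3 and 7 were 1.36, 0.30 and 1.41. The gene overlaps Junos on the opposite strand, Junb overlaps Prdx2 on the opposite strand, and the methods list no strand option for STARsolo, which by default counts reads on the gene's own strand. Whether that default held was not checked in the files.

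Of the zinc-finger factors, Egr1 was at 32.3 CPM in sham and at 20.7, 20.5 and 19.1 at days 1, 3 and 7. It was lower by a similar amount at each day, with ratios of 0.641 (0.496 to 0.824), 0.634 (0.512 to 0.786) and 0.592 (0.454 to 0.766), none of which reached 2-fold. Egr3 had 7, 9, 4 and 1 UMIs, too few for a call.

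Npas4 was at 11.3 CPM in sham, 8.45 at day 1, 7.23 at day 3 and 7.30 at day 7. Its ratio was below 1 at each day, but the interval at day 1 included 1 and that at day 7 reached 0.995. Nr4a1 was at 18.2 CPM in sham, 8.66 at day 1, 10.0 at day 3 and 6.66 at day 7. It was the member called at day 1, at a ratio of 0.476 (0.323 to 0.690), and it was called again at day 7, at 0.366 (0.237 to 0.552), with day 3 between them at 0.550 (0.407 to 0.742). Both calls were lost with nuclei thinned to 1000 UMIs, where its log2 ratio was -0.28 at day 1 and -0.81 at day 7.

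Of the synaptic members, Arc was at 32.3 CPM in sham, 18.2 at day 1, 12.2 at day 3 and 8.59 at day 7. Its levels descended in the order of the days, the day 1 and day 3 intervals just overlapped (14.5 to 22.4 and 9.92 to 14.8 CPM), and the ratio at day 7 was 0.266 (0.184 to 0.376). The share of glutamatergic-like nuclei with an Arc UMI was 24.4% in sham, 22.5% at day 1, 9.15% at day 3 and 8.44% at day 7, with the day 1 nuclei deeper than the sham ones. Homer1, counted over introns as well as exons and so with its short and long forms together, was at 340.1 CPM in sham, 270.9 at day 1, 294.7 at day 3 and 204.7 at day 7. All 3 Homer1 ratios had intervals below 1, from 0.602 (0.556 to 0.651) at day 7 to 0.866 (0.816 to 0.920) at day 3, and 2 genes on its strand overlap it.

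The content of free RNA was read from all barcodes of at most 1000 UMIs, and its amount from those of 100 to 1000, whose median total was 307 to 433 UMIs a droplet. If each nucleus carried that much, it would make up 2.40% to 3.67% of the UMIs of glutamatergic-like nuclei and give Arc 0.7 to 1.3 CPM and Junb 1.7 to 3.5 CPM, well under the measured levels. The free RNA itself held less of most members later on, with a median log2 ratio of -0.09 at day 1, -0.41 at day 3 and -0.63 at day 7, below sham for 6, 9 and 9 of 10 members. Over all genes with at least 20 UMIs in the free RNA the median was 0.007, -0.065 and 0.005. At day 1 Fos, Jun and Junb were higher in it than in sham, Junb at 143.9 against 100.6 CPM. With free RNA subtracted, in equal number per nucleus or as 5% of the class total, the medians of the members in these nuclei stayed within their counting ranges.

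By layer group of the class, Arc was at 25.7, 23.7, 12.1 and 1.32 CPM in upper-layer-like nuclei in the order sham, day 1, day 3 and day 7. In middle-layer-like nuclei it was at 36.2, 15.5, 12.2 and 8.24 CPM, in deep-layer-like nuclei at 42.6, 20.2, 18.7 and 15.3, and in the other glutamatergic-like clusters at 25.3, 14.7, 6.54 and 7.86. All were below their sham value at each day, by 2-fold at day 1 in middle-layer-like (0.429, 0.238 to 0.737) and deep-layer-like nuclei (0.473, 0.274 to 0.791), where 2.60% and 2.32% of all genes were called lower, and not in upper-layer-like nuclei (0.924, 0.521 to 1.62). Arc was called lower in each of the 4 groups at day 3 and at day 7, where between 1.83% and 2.23% of all genes were called lower at day 3 and between 2.95% and 4.27% at day 7. Junb at day 1 had ratios on both sides of 1, from 0.445 (0.243 to 0.782) in the other clusters, its 1 call there against 2.69% of genes, to 1.29 (0.786 to 2.12) in middle-layer-like nuclei. At day 3 it was called lower in 3 of the 4, with middle-layer-like nuclei at 0.633 (0.393 to 1.02). At day 7 it was called lower in all 4, from a ratio of 0.233 (0.0943 to 0.503) in deep-layer-like to 0.393 (0.192 to 0.757) in middle-layer-like nuclei.

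Of the members with 20 UMIs, those called lower at days 1, 3 and 7 were 1, 4 and 3 of 7 in upper-layer-like nuclei, 2, 3 and 3 of 7 in middle-layer-like nuclei, 2 of 6, 2 of 7 and 2 of 5 in deep-layer-like nuclei, and 2 of 8, 2 of 7 and 3 of 6 in the other clusters. None was called higher in any of them, where 1.5% to 3.55% of genes were. The difference between layers was not tested. Upper-layer-like nuclei at day 1 had a median log2 ratio over the list of 0.04 (-1.004 to 0.94), a range that held the -0.34, -0.70 and -0.49 of the middle, deep and other groups. Nr4a1 was called lower there at day 1 from 7 and 19 UMIs (0.409, 0.145 to 1.02), where 3.06% of genes were, and Homer1 had a ratio of 0.840 (0.727 to 0.972). In middle-layer-like nuclei Nr4a1 was at 22.7 CPM in sham and was called lower at each day, with ratios of 0.380 (0.169 to 0.779), 0.455 (0.268 to 0.763) and 0.272 (0.116 to 0.574), against 2.60%, 1.85% and 2.95% of genes. Npas4 was called lower in deep-layer-like nuclei at day 1 (0.201, 0.0378 to 0.695), from 3 and 17 UMIs. Egr1 was called lower in upper-layer-like nuclei at day 3 (0.413, 0.227 to 0.733) and day 7, at 12.7 and 9.26 against 30.8 CPM, and in the other clusters at day 1 (0.465, 0.253 to 0.821). Npas4 was called in upper-layer-like nuclei at day 3, at 3.82 against 17.97 CPM, and Jun in middle-layer-like nuclei at day 3, at 6.63 against 13.5 CPM (0.491, 0.248 to 0.960). In deep-layer-like nuclei Egr1 was at 45.8 CPM in sham and 32.6 at day 7, and its ratio did not reach 2-fold at any day.

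In striatal-projection-like nuclei, the inhibitory output neurons of the striatum, the members' medians were below sham at each day, with counting ranges that included 0, and with nuclei thinned to 1000 UMIs they were above it at day 1 (0.35) and day 7 (0.07). The class held 238, 80, 269 and 136 nuclei in library order, and day 1 had a median log2 ratio of -0.25 (-1.27 to 0.63). Day 3 had -0.15 (-1.26 to 0.32), and day 7 had -0.84 (-2.49 to 0.15). All 10 members were below sham at day 7, as were 54.3% of all genes tested. Calls were 0 of 8 members at day 1, 1 of 7 at day 3 and 2 of 7 at day 7, against 1.71%, 1.92% and 2.61% of all genes called lower and 2.65%, 2.7% and 4.26% of those under 25 kb. None was called higher, where 2.87%, 1.43% and 1.84% of genes were.

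Arc was at 17.97 CPM in sham in these nuclei, 14.7 at day 1, 11.7 at day 3 and 5.65 at day 7, and the last ratio was 0.314 (0.128 to 0.678). With nuclei thinned to 1000 UMIs the log2 ratio of Arc at day 7 was 0.0704, the other direction, and as a mean over nuclei it was -1.06. The other calls were Npas4 at day 3, at 6.83 against 13.7 CPM in sham, and Jun at day 7, at 3.53 against 7.28 CPM, where the interval of the ratio included 1 (0.140 to 1.37). Neither call held throughout, since the log2 ratio of Npas4 was between -0.99 and -0.95 under 4 alternatives (every barcode over 1000 UMIs, TMM scaling, means over nuclei and no top nucleus) and that of Jun was -0.93 with doublets kept and -0.52 as a mean over nuclei. Fosb, whose stable spliced product is known to accumulate in these neurons, had 14, 7, 3 and 1 UMIs, or 5.99, 5.15, 1.20 and 0.71 CPM. It was under the 20 UMIs needed for a call at days 3 and 7, where its ratios were 0.201 (0.0371 to 0.721) and 0.118 (0.00279 to 0.775). Egr1 stayed at 30.4, 33.1, 29.3 and 23.3 CPM, and all its ratio intervals included 1. Homer1 was at 426.2 CPM in sham, 335.9 at day 1, 445.8 at day 3 and 372.3 at day 7, so day 3 was not lower here (ratio 1.05, 0.959 to 1.14).

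In interneuron-like nuclei, with 65 to 158 nuclei a library, 3 members had 20 UMIs. Junb was at 19.7 CPM in sham, 12.5 at day 1, 4.74 at day 3 and 3.06 at day 7, from 23, 13, 6 and 3 UMIs. The ratio was 0.240 (0.0800 to 0.607) at day 3 and 0.155 (0.0298 to 0.513) at day 7, days when 2.28% and 3.58% of all genes, and 3.92% and 6.09% of those under 25 kb, were called lower. Egr1 was at 15.4, 12.5, 11.1 and 5.09 CPM and was called at day 7 as well, a call lost with doublets kept (log2 ratio -0.97) and as a mean over nuclei (-0.48). No member was called lower at day 1, where 2.16% of genes were, and none was called higher at any day, against 2.23%, 1.57% and 1.97%. Homer1, at 123.5 CPM in sham and 82.5 at day 7, was lower at day 7 by less than 2-fold (0.668, 0.502 to 0.883).

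**Figure D2:**
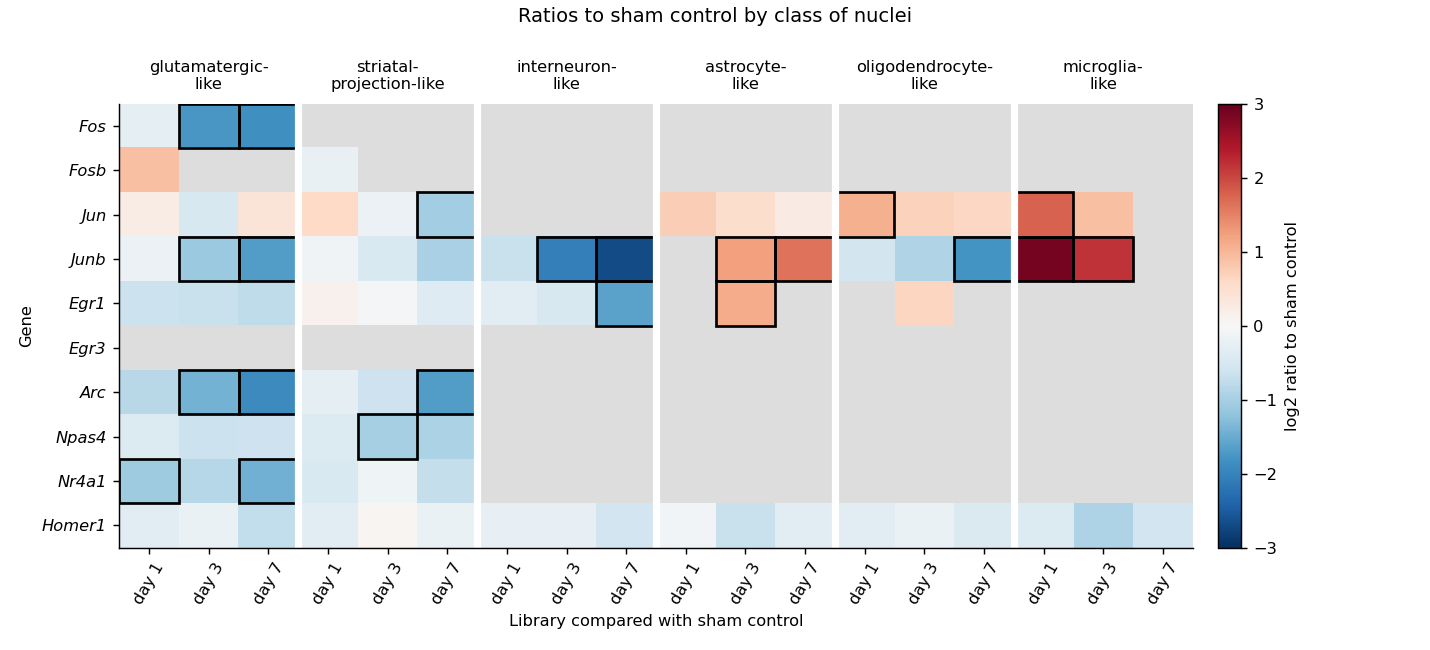
The map shows the log2 ratio of each gene (rows) to sham control in 6 classes of nuclei at 3 days (columns), blue for lower and red for higher, grey where the 2 libraries together held under 20 UMIs, and framed where the ratio was at least 2-fold. Neuronal classes are mostly blue, with Junb at -2.69 in interneuron-like nuclei at day 7, and the framed red cells are Jun, Junb and Egr1 in astrocyte-like, oligodendrocyte-like and microglia-like nuclei.

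Over all neuronal nuclei together, 663 to 1903 a library, every member had 20 UMIs. Of all genes tested there, 45.3%, 61.8% and 59.5% were below sham at days 1, 3 and 7. Their median log2 ratios were 0.03, -0.06 and -0.06. At day 1, 9 of 10 members were below sham and none by 2-fold, against 1.21% of all genes called lower, with a median of -0.44 (-0.93 to -0.07). At day 3 all 10 were below sham, 1 by 2-fold (1.49% of all genes), with a median of -0.66 (-1.01 to -0.27). At day 7, 9 were below sham and 6 were called, against 1.78% of all genes, with a median of -1.18 (-1.66 to -0.50). The 6 were Fos, Fosb, Junb, Egr3, Arc and Nr4a1, and Jun was the member above sham, at 11.4 against 9.26 CPM. Fosb in this sum was at 2.68 CPM in sham, 2.20 at day 1, 1.39 at day 3 and 0.62 at day 7, and Egr3 at 1.16, 1.10, 0.81 and 0.36 CPM. The calls of Fosb and Egr3 thus rest on few UMIs.

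The number of different members per nucleus was compared next. After every neuronal nucleus was thinned to 3000 UMIs, to set depth equal, UMIs of 3 or more different members were found in 3.71% of 1346 nuclei in sham (2.77% to 4.87%), 1.81% of 662 at day 1 (0.940% to 3.14%), 1.92% of 1824 at day 3 (1.34% to 2.66%) and 1.02% of 979 at day 7 (0.491% to 1.87%). The sham interval lay above those of day 3 and day 7 and overlapped that of day 1. Homer1 has a UMI in most neuronal nuclei, so the shares were also taken over the 9 other members. For 3 or more of them they were 1.26% (0.737% to 2.02%), 0.906% (0.333% to 1.96%), 0.493% (0.226% to 0.935%) and 0.409% (0.111% to 1.04%), from 17, 6, 9 and 4 nuclei, and the sham interval overlapped each of the others. For 2 or more they were 4.98% (3.88% to 6.28%), 3.17% (1.97% to 4.81%), 2.58% (1.90% to 3.41%) and 1.63% (0.937% to 2.64%), and for 1 or more 23.5%, 20.4%, 18.3% and 14.8%. In both of these the sham interval lay above those of day 3 and day 7 and overlapped that of day 1. Without thinning, over all 10 members, they were 17.2%, 20.5%, 9.83% and 9.58%, with median depths of 8520, 14240, 7739 and 9306 UMIs, so the deep day 1 nuclei then stood highest. Oligodendrocyte-like nuclei, which should lack activity programmes, gave 1.67% of 60 nuclei in sham and 0 of 71 to 88 after MCAO at the thinned depth, where the upper limit for the 0 of 77 at day 7 was 4.68%. Without Homer1 they gave 20.0%, 20.5%, 18.3% and 19.5% for 1 or more members and 3.33%, 2.27%, 2.82% and 0% for 2 or more. At each of these counts the interval of the oligodendrocyte-like share included the neuronal share in every library, so the neuronal shares are not shown to lie above that background. The comparison is a weak one, since it rests on 60 to 88 oligodendrocyte-like nuclei a library. Their shares also include Jun, which stood above its free RNA level in them. Thinning left out 1 to 79 neuronal nuclei a library and 73 to 366 oligodendrocyte-like ones.

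The pathway around the members was read from 3 further lists. The rapid list holds 31 other genes induced soon after stimulation, the delayed list holds 20 activity genes that follow, and the upstream list holds 30 receptors, channels, kinases and factors that drive both. In glutamatergic-like nuclei the rapid list had a median log2 ratio of 0.01 (-0.70 to 0.57) at day 1, where that of all genes was 0.03 and that of the members -0.30, within its range. Day 3 had -0.48 (-0.997 to 0.00384), and day 7 had -1.08 (-1.95 to -0.32). Of its genes with 20 UMIs, 1 of 24 was called lower at day 1, 7 of 24 at day 3 and 11 of 22 at day 7, and 1 of 24 was called higher, at day 1. Over all genes 1.52%, 1.57% and 2.31% were called lower at the 3 days, and 3.06%, 1.63% and 2.34% higher. The delayed list was at 0.07, -0.07 and -0.15, with 1, 0 and 0 of 17 called higher and 0, 1 and 2 called lower, and the upstream list at 0.02, 0.05 and -0.03, with 0 of 30 called at any day.

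Nr4a3, the close relative of Nr4a1, was at 14.3 CPM in sham, 9.51 at day 1, 5.55 at day 3 and 3.65 at day 7, a ratio of 0.255 (0.142 to 0.435) at the last. Trib1, a pseudokinase that steers protein turnover, was at 6.71, 2.96, 2.77 and 1.93 CPM and was the gene of the rapid list called lower at day 1. Dusp5, a nuclear phosphatase of ERK, and Ppp1r15a, which restores translation after stress, were lower at day 3, with ratios of 0.382 (0.184 to 0.764) and 0.395 (0.170 to 0.874). Klf2, a zinc-finger factor, had 17 UMIs in sham and 3 at day 7, a ratio of 0.215 (0.0403 to 0.742).

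Higher values were few. Ier3, a stress-induced survival gene, had 6 UMIs in sham and 14 at day 1, a ratio of 2.79 (1.01 to 8.87). Ptgs2, the inducible cyclooxygenase of the delayed list, was at 4.24 CPM in sham, 8.88 at day 1, 3.62 at day 3 and 4.94 at day 7, a ratio of 2.09 (1.24 to 3.62) at day 1. No gene of the 3 lists was called higher in these nuclei at day 3 or day 7.

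In striatal-projection-like nuclei the rapid list had medians of -0.34, -0.45 and -0.71, with 1 of 13, 3 of 16 and 5 of 13 genes called lower, against 1.71%, 1.92% and 2.61% of all genes. The delayed list had -0.17, 0.06 and -0.04, and the upstream list -0.04, -0.03 and -0.04. The median over all genes was 0.02, -0.05 and -0.04.

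**Figure D3:**
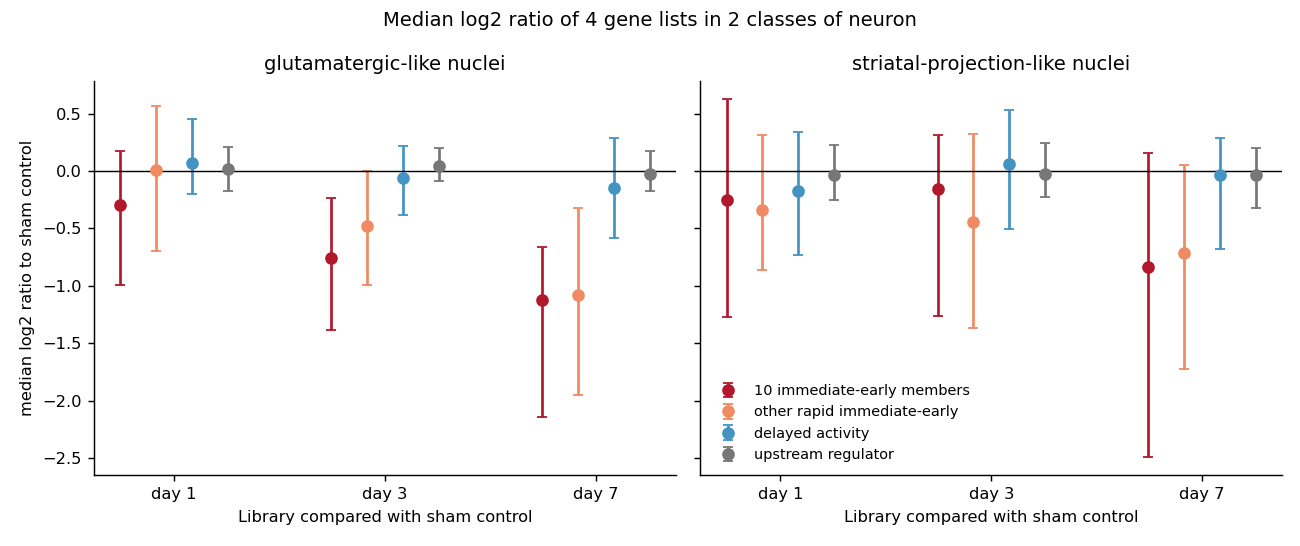
The median log2 ratio to sham control of 4 gene lists is plotted at each day in 2 classes of neuron, and bars run from the median lower to the median upper counting limit of the genes. The members' median takes no filter, while those of the other lists take only genes with at least 20 UMIs. In glutamatergic-like nuclei the members and the rapid list reach -1.12 and -1.08 at day 7, while the delayed and upstream lists stay at -0.15 and -0.03.

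Jun and Junb, which stress and cytokines induce outside neurons, had different values from one glial class to the next. In microglia-like nuclei Junb was at 13.6 CPM in sham (4 UMIs), 99.6 at day 1 (26 UMIs), 61.0 at day 3 (29 UMIs) and 36.2 at day 7 (11 UMIs). The intervals of day 1 and day 3 lay above that of sham, and the ratios were 7.34 (2.55 to 28.9) and 4.50 (1.58 to 17.6), on days when 6.96% and 9.20% of all genes tested, and 10.7% and 13.8% of those under 25 kb, were called higher. Day 7, at a ratio of 2.67 (0.791 to 11.5), could not be told from sham. None of the 3 members with 20 UMIs was called lower at day 1 or day 3, against 5.39% and 5.63% of genes, and none of 1 was called at day 7, where 6.06% were higher and 5.14% lower.

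A Junb UMI was found in 4.40% of microglia-like nuclei in sham and 40.0% at day 1, and these nuclei held 3241 and 5803 UMIs on average.

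Jun in the same nuclei was at 16.9 CPM in sham, 57.4 at day 1, 31.6 at day 3 and 32.9 at day 7, and only day 1 was called (3.39, 1.17 to 11.9). Equal free RNA per droplet would give Junb 6.4 to 10.7 CPM in these nuclei, within its sham interval (3.70 to 34.7) and well under day 1 and day 3. Egr1 was at 30.5, 15.3, 21.0 and 6.59 CPM and Arc at 20.4, 11.5, 2.10 and 3.29, from 10 or fewer UMIs each. Fosb was not counted in any microglia-like nucleus, and the floor of 3 UMIs allows 6.31 to 11.5 CPM.

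In astrocyte-like nuclei, 58 to 219 a library, Junb was at 10.4 CPM in sham, 25.7 at day 1, 24.4 at day 3 and 32.4 at day 7. Every later library was higher, but the counts were 7, 10, 20 and 14 UMIs and only the ratio at day 7 had an interval above 1 (3.11, 1.18 to 9.11). Equal free RNA would give 6.71, 9.30, 6.55 and 3.34 CPM, which lay within the interval of sham (4.19 to 21.5) and below those of the later libraries. At day 3 Junb and Egr1 were the members called higher, 2 of 4 with 20 UMIs against 3.08% of all genes and 5.2% of those under 25 kb, and at day 7 Junb was the 1 of 3, against 3.41% and 4.38%. With nuclei thinned to 1000 UMIs the log2 ratio of Junb at day 3 was -0.17, the other direction. When the libraries were merged without integration, all 3 calls were lost, with log2 ratios of 0.14 and 0.55 for Junb at days 3 and 7 and 0.57 for Egr1 at day 3, and as means over nuclei both of Junb were lost (0.93 and 0.85). Neither of the 2 members tested at day 1 was called, where 3.06% of genes were higher and 6.27% lower, and none was called lower later, against 4.40% and 6.59%. Egr1 was at 11.9, 23.2, 25.7 and 20.9 CPM, and its interval at day 3 included 1 (2.16, 0.917 to 5.63). Fos was at 4.47, 10.3, 18.3 and 6.95 CPM, with 6 of its 15 UMIs at day 3 in 1 nucleus. Jun was at 37.2, 61.8, 53.8 and 44.0 CPM, with every ratio interval including 1, and Homer1 was lower at day 3, at 95.4 against 150.3 CPM (0.634, 0.466 to 0.861).

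In oligodendrocyte-like nuclei Jun was at 18.6 CPM in sham, 38.7 at day 1, 29.9 at day 3 and 28.5 at day 7. The day 1 ratio was 2.08 (1.04 to 4.29), 1 of 3 members against 3.38% of all genes called higher, and none was called lower, against 4.62%. Merged without integration its log2 ratio was 0.94, under the 2-fold needed. None of 4 was called at day 3, where 3.55% of genes were higher and 2.14% lower. Junb went the other way, at 19.8, 13.5, 10.6 and 5.70 CPM, and was called lower at day 7 (0.287, 0.0698 to 0.890), where 4.69% of genes were and 2.31% were called higher. Equal free RNA would give Junb 12.4, 16.9, 10.3 and 7.4 CPM and Egr1 13.5, 9.9, 15.4 and 8.1 in these nuclei, values that lay within the interval of the measured level in every library. With that free RNA subtracted the log2 ratio of Junb at day 7 was -0.81, and with nuclei thinned to 1000 UMIs it was -0.39, so the call was lost in both. Jun would be given 5.1 to 7.7 CPM and stood above that in every library.

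**Figure D4:**
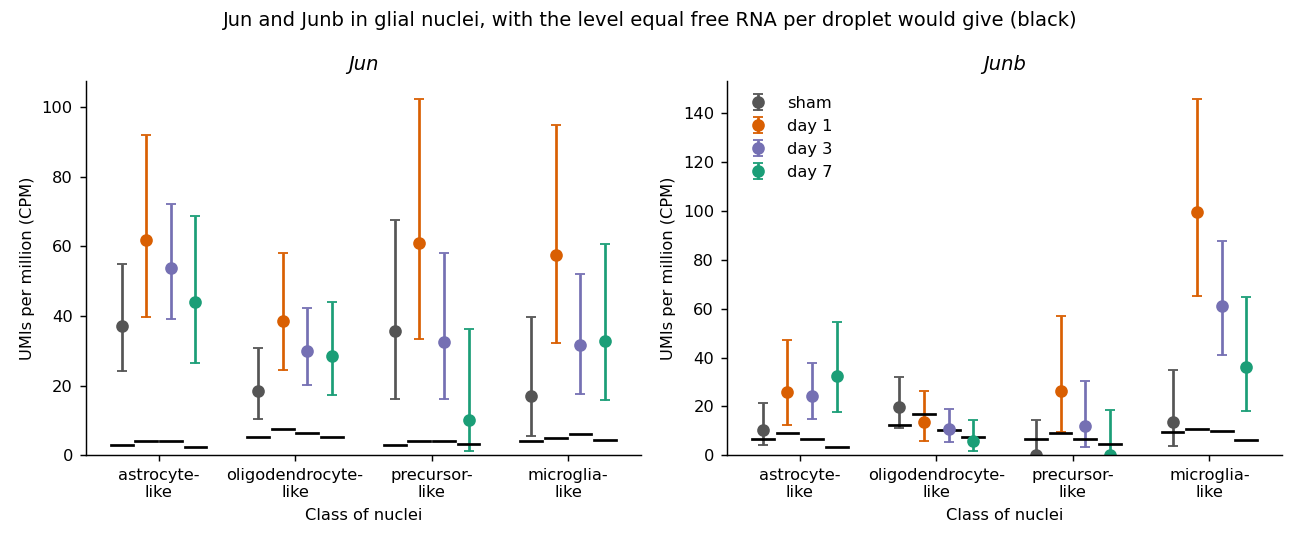
Levels of Jun and Junb (CPM, linear axis from 0) are plotted in 4 glial classes of the 4 libraries with exact 95% Poisson bars, and black ticks mark the level that equal free RNA per droplet would give. Junb in microglia-like nuclei is at 13.6 CPM in sham and 99.6 at day 1, while Junb in oligodendrocyte-like nuclei has intervals that include its free RNA ticks.

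Oligodendrocyte-precursor-like nuclei, 34 to 90 a library, had 9, 14, 11 and 2 Jun UMIs, or 35.6, 61.0, 32.5 and 10.0 CPM. No Junb UMI was counted in them in sham or at day 7, against 6 at day 1 and 4 at day 3. Homer1 was at 173.9, 108.9, 121.2 and 80.1 CPM and was called lower at day 7 (0.461, 0.243 to 0.833), the 1 member tested there, where 5.22% of genes were called lower and 3.58% higher. Neither of 2 was called at day 1, where 5.46% were higher and 4.08% lower, or at day 3, where 5.21% were higher and 3.02% lower.

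Endothelial-like nuclei held 39, 6, 72 and 21 nuclei, too few at day 1 for a comparison. Jun was at 158.1 CPM there in sham, 119.6 at day 3 and 131.1 at day 7, and Junb at 89.3, 75.9 and 77.1, with all ratios to sham at these days spanning 1.

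Among the neuronal classes of the sham library, Arc was highest in glutamatergic-like nuclei at 32.3 CPM (27.8 to 37.4), then in striatal-projection-like nuclei at 17.97 (12.9 to 24.3), then in the unnamed neuronal clusters at 13.5, and the first lay above the second beyond counting error. Microglia-like nuclei had 20.4 CPM from 6 UMIs, with an interval (7.47 to 44.3) that overlapped all of these. Egr1 was at 32.3 CPM in glutamatergic-like, 30.4 in striatal-projection-like and 25.4 in unnamed neuronal nuclei, neighbours whose intervals overlapped, and at 13.3 in the subcortical class led by Baiap3. Microglia-like nuclei, at 30.5 CPM from 9 UMIs, overlapped each of these 4. Homer1 was highest in striatal-projection-like nuclei at 426.2 CPM (400.1 to 453.5), above glutamatergic-like nuclei at 340.1 (325.1 to 355.6), which overlapped the unnamed neuronal clusters at 314.1 (292.2 to 337.1). Astrocyte-like nuclei were at 150.3 and oligodendrocyte-like nuclei at 98.0.

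In the sham library Jun was highest in endothelial-like nuclei at 158.1 CPM (100.2 to 237.2), with astrocyte-like at 37.2, precursor-like at 35.6 and oligodendrocyte-like at 18.6. Microglia-like nuclei, at 16.9 CPM (5.51 to 39.6), lay within the range of the neuronal classes, between 4.29 and 17.1. The interval of endothelial-like nuclei lay above those of these other classes. Fibroblast-like, pericyte-like, ependymal-like and choroid-plexus-like nuclei, each under 20 in sham, were not ranked. The subcortical class led by Baiap3 had other values after MCAO, with Junb at 8.29 CPM in sham, 9.23 at day 1, 17.8 at day 3 and 8.15 at day 7. Its day 3 ratio was 2.14 (1.14 to 4.22), the 1 called of 4, where 1.18% of all genes were called higher and 2.23% lower. At day 1 Egr1 was called lower, 1 of 4 against 2.04% (1.58% higher), with an interval that included 1 (0.497, 0.212 to 1.08). At day 7 none of 5 was called, against 1.89% higher and 3.16% lower. The subcortical glutamatergic-like class had 20 UMIs only for Homer1, which was not called at any day, where 3.30%, 3.11% and 3.18% of genes were higher and 4.15%, 3.79% and 4.02% lower. In the unnamed neuronal clusters Junb, Egr1, Arc and Npas4 were called lower at day 7, 4 of 7 against 2.78% of genes.

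Likeness to the members was measured over 36 points, 9 neuronal subclasses in 4 libraries, as Pearson's r between a gene and the mean of the members after each was centred within its subclass, and the points of a library share its depth and free RNA. The members themselves had r with the mean of the other 9 from 0.43 to 0.71 except Jun, at 0.09. Of 12126 genes outside all lists, the 5 highest were Gpx4 at 0.79, Ndfip1 at 0.79, Ubb at 0.78, 1700016P03Rik at 0.77 and Peg3 at 0.76. Ubb, a polyubiquitin gene induced by stress, was at 73.8 CPM over all neuronal nuclei in sham, 46.1 at day 1, 35.2 at day 3 and 17.7 at day 7. Gpx4, which removes lipid peroxides, was at 16.3, 15.4, 13.2 and 9.26 CPM.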

How the data were processed

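Nuclei of the 4 libraries were analysed from the UMI counts per gene and barcode that the authors deposited, raw and unfiltered. Per the labels and the study's methods the authors aligned reads to GRCm38 with STARsolo (STAR 2.7.3a per the submitters' processing notes) and counted exonic and intronic reads. No counts were normalised before deposit.

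Nuclei were called with a re-implementation of emptyDrops (free RNA from barcodes of at most 1000 UMIs, 10000 Monte Carlo draws, false discovery rate 0.001), and doublets were scored with Scrublet in scanpy 1.11.5 and removed at 0.8% per 1000 nuclei. Clustering used Seurat 5.3.0 with sctransform 0.4.2, integration, 30 components and resolution 0.8, without the listed genes. The 34 clusters were named from marker genes, and a name required a marker among the top 10 genes, at least 3 markers detected and a lead of 0.5 over the next class, a rule revised after the clusters were seen, so names are written as "-like". Of these clusters, 9 stayed unnamed.

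UMIs were summed per class and library. Levels carry exact Poisson intervals, ratios exact conditional binomial intervals and shares Clopper-Pearson intervals, at 95%. In medians and bounds a sum under 3 UMIs counted as 3, and genes with 3 or fewer UMIs in each of the 2 sums got no ratio. A list's counting range runs from the median of its genes' lower limits to the median of the upper limits. Members needed no filter in their median, and genes of other lists needed 20 UMIs. Named genes were all members, and of the other lists the 3 largest rises and falls of at least 2-fold in glutamatergic-like nuclei at each day. The calling and ratio steps were tested on simulated data. The members and lists were chosen with earlier results of these data known. With 1 library per group there was no test between conditions. Likeness used log2(CPM + 10), standardised per gene. Alternatives are given in the closing section. Gene positions are from GENCODE vM21 on GRCm38.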

Additional observations from a re-analysis of the deposited data

Results flagged for a closer look

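Junb was at least 2-fold from sham in opposite directions in different classes of the same library. At day 3 its log2 ratio to sham was 1.23 in astrocyte-like and 2.17 in microglia-like nuclei, and -1.11 in glutamatergic-like and -2.06 in interneuron-like nuclei. At day 7 it was 1.64 in astrocyte-like nuclei, against -1.67 in glutamatergic-like, -2.69 in interneuron-like and -1.80 in oligodendrocyte-like nuclei. With 1 library per group these differences between classes were not tested. The astrocyte-like ratio at day 3 rests on 20 and 7 UMIs and its interval included 1, and it was 0.14 without integration and -0.17 with nuclei thinned to 1000 UMIs. Without integration the astrocyte-like value at day 7 was 0.55. In oligodendrocyte-like nuclei the level that equal free RNA would give Junb lay within the measured interval in every library, and Junb in the free RNA was at 100.6 CPM in sham and 63.1 at day 7. With equal free RNA subtracted the log2 ratio there at day 7 was -0.81.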

How the results depend on the processing

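The 33 list medians kept within their counting ranges under each alternative run: other nucleus calling, doublets kept, no integration, TMM scaling (edgeR 4.0.16), means over nuclei, thinning to 1000 UMIs, 2 subtractions of free RNA, and removal of each gene's top nucleus. In glutamatergic-like nuclei the members' median ran from -0.39 to -0.28 at day 1, -1.19 to -0.71 at day 3 and -1.25 to -0.84 at day 7. At 1000 UMIs the members' median was above 0 in striatal-projection-like nuclei at day 1 (0.35) and day 7 (0.07) and in interneuron-like nuclei at day 7 (0.10), and 2 called values changed sign: Arc in striatal-projection-like nuclei at day 7 (log2 ratio 0.0704) and Junb in astrocyte-like nuclei at day 3 (-0.17). The members' median also changed sign in astrocyte-like nuclei at days 3 and 7 and oligodendrocyte-like nuclei at days 1 and 3, where its range included 0. At 1000 UMIs 22 other single values moved beyond their intervals, as 1 did with means over nuclei (Jun in glutamatergic-like nuclei at day 1, log2 ratio 0.88). The thinned sums hold few UMIs.

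The shares of all genes called moved in 30 of 30 cases with a minimum of 50 UMIs and in 24 of 30 with more than 3 UMIs in the larger sum. For lower calls in glutamatergic-like nuclei at day 7 they were 0.921% and 3.43%, against 2.31% at 20 UMIs.

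The share of neuronal nuclei with 3 or more members moved with each choice. In the order sham, day 1, day 3 and day 7 it was 0.721%, 0.302%, 0.105% and 0% after thinning to 1000 UMIs, 17.15%, 20.5%, 9.83% and 9.58% without thinning, and 15.8%, 12.2%, 10.03% and 6.64% for 2 or more members. Day 1 stood above sham only without thinning.

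No paired analysis was possible because each group holds 1 library, and for the same reason no replicate was left out. Depth limits Fosb and Egr3 in single classes and most members in glia.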

Other observations

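The clusters that stayed unnamed and were not neuronal held 20 nuclei in sham, 32 at day 1, 104 at day 3 and 33 at day 7, and most of them belonged to a cluster led by Hspa1a, Ttr and mitochondrial transcripts, which made up 8.70% of its UMIs. The other unnamed nuclei that were not neuronal formed a cluster of 25 nuclei, with Ly86, Inpp5d and Ccl4 among its top genes. Levels here are over both clusters together and were not split between them. At day 1 the unnamed nuclei had high levels of several members. Npas4 was at 32.9 CPM in sham, 81.7 at day 1, 4.99 at day 3 and 0 at day 7, with 22 of the 31 UMIs of day 1 in 1 nucleus and an interval of the ratio that included 1 (2.48, 0.956 to 8.17). Jun was at 26.3, 89.6, 54.9 and 25.6 CPM, and Egr1 at 13.2, 65.9, 29.9 and 29.9. In this group 5 of 6 members were called higher at day 1, where 14.7% of all genes tested were. The 5 include Npas4, whose call rests on that nucleus.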
